A study of Mus musculus with 10 samples.

Results

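The metallothionein genes Mt1, Mt2, Mt3 and Mt4 were described in hemibrain RNA from 10 mice, each hybridized in Cy-5 to a 2-color whole mouse genome array against another RNA in Cy-3. Probes were taken as metallothionein probes when the RefSeq accession in the array file belonged to 1 of these 4 genes. This gave 5 probes of 41174 and 4 genes of 18539. Mt1 was measured by A_51_P294979, printed as 10 spots on each array, Mt2 by A_51_P246317, Mt3 by A_52_P320971, and Mt4 by A_51_P424272 and A_51_P424275, all printed once.

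The animals were male C57BL/6J mice that entered at 3 weeks of age, were housed singly and received either a fish oil diet enriched in n-3 PUFA (FD) or a standard laboratory diet (SD) for about 20 weeks, and the left hemibrain was taken at 5 months. The labels contradicted each other on diet, since the diet entry of each Cy-5 sample was FD while the description of each of the same arrays called it a control. No array was therefore assigned to a diet, no comparison of diets was made, and each array is named by its animal. The Cy-3 RNA was a pool of SD hemibrain in the labels but a commercial reference RNA in the methods, so a ratio below compares hemibrain with an RNA whose identity was not settled.

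Metallothioneins are small proteins rich in cysteine that bind zinc and copper through thiol groups. Mt1 and Mt2 are made in most tissues, in brain chiefly by astrocytes, and are known to be induced by zinc, glucocorticoids and oxidative stress, with the zinc-sensing transcription factor Mtf1 acting at metal response elements in their promoters. Mt3 is the brain form, found in neurons and astrocytes and first described as a growth inhibitory factor, and Mt4 is known from stratified squamous epithelium. The genes lie side by side on mouse chromosome 8, in the order Mt4, Mt3, Mt2, Mt1 in the RefSeq annotation, with the noncoding gene Gm39227 between Mt3 and Mt2.

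The 250 bases before the annotated start of Mt1, Mt2 and Mt3 are shown because the zinc-induced members and the brain form are known to differ in their response to zinc. The sequences are from RefSeq, build GRCm38.p6, plus strand, at chr8:94178839-94179088 for Mt1, chr8:94172368-94172617 for Mt2 and chr8:94152357-94152606 for Mt3. Capitals mark matches to the core letters TGCACNC or TGCGCNC on either strand, and no matches overlapped.
Mt1: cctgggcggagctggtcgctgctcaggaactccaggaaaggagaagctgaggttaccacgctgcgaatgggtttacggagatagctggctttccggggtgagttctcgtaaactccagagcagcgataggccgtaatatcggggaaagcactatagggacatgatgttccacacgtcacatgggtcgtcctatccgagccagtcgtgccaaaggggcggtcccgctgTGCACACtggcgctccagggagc
Mt2: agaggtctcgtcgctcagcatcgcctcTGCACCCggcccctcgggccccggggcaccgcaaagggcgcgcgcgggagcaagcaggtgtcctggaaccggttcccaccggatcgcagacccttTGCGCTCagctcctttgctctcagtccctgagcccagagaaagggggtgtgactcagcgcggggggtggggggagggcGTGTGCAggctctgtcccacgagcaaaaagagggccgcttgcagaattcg
Mt3: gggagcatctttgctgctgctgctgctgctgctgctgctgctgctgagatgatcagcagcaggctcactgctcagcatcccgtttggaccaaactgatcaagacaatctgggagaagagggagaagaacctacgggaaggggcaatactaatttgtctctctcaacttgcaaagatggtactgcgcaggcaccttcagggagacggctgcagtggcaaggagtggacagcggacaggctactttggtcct
Mt2 held 3 matches in these bases, beginning at positions -223 and -128 on the plus strand and at -50 on the minus strand. Mt1 held 1, at -23, Mt3 held 0 and Mt4 held 1, at -91 on the minus strand. Of 32851 promoter windows, 21.4% held at least 1 match and 1.26% held 3 or more within the 250 upstream bases. In the full window, which runs a further 50 bases past the start, the counts were 3 for Mt1, 4 for Mt2, 1 for Mt3 and 1 for Mt4, and 1.97% of windows held 3 or more. The letters TATAAA occurred in the 250 upstream bases of Mt4 but not in those of Mt1, Mt2 or Mt3. The windows are anchored at the annotated starts, other start sites were not examined, and a match describes letters and not a bound site. The counts therefore hold for these windows alone and do not rank the members by their response to zinc.

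The arrays lay on 4 slides. Slide 1 held C10-413, slide 2 held C10-415, C10-416, C10-417 and C10-423, slide 3 held C10-424, C10-425, C10-434 and C10-435, and slide 4 held C10-437. C10-434 was dim in Cy-5, with 50.4% of its spots detected (flagged well above background by the scanner software) against 68.9% to 77.5% on the other arrays. The hemibrain label held against markers in Cy-5 over Cy-3. All 7 neuronal, all 6 oligodendrocyte and 7 of 8 astrocyte marker genes with a value were higher in Cy-5 by more than 2-fold on every array. The same held for 4 of 5 markers of choroid plexus and ependyma, but for only 3 of 6 of microglia and 2 of 4 of endothelium. It held for 15.7% of all genes with a value on every array. Of 5 liver genes measured, Alb and Fgb were detected on 0 arrays in either dye and Apoa1 on 0 in Cy-5, while Tat was detected on 10 in each dye and Ttr, which choroid plexus also makes, on 10 in Cy-5.

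The 4 genes fell on opposite sides of the Cy-3 RNA. Mt3 was higher in hemibrain on 10 of 10 arrays, by a median of 8.63-fold. Mt1 and Mt2 were lower on 10 of 10 arrays, by medians of 2.66-fold and 1.58-fold. The brighter Mt4 probe was also below 0 on 10 of 10 arrays, but Mt4 signal was close to background. Values are log2 of the processed Cy-5 over the processed Cy-3 signal, in which 0 is equal signal and 1 is a 2-fold difference. A low ratio was not a low hemibrain signal. Signal in each dye was also ranked among the genes detected in both dyes on every array. In Cy-5, 95.6% of these genes had a lower median level than Mt1, 98.2% than Mt2 and 88.3% than Mt3. In Cy-3 the shares were 98.8%, 99.1% and 45.6%.

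Mt3 had a log2 ratio of 2.65 on C10-417, the lowest array, 3.11 at the median and 3.30 on C10-434, the highest. All 10 arrays were thus past 2-fold, from 6.30-fold to 9.82-fold higher. Of the 17659 genes with a value on all arrays, 15.7% were higher in Cy-5 by more than 2-fold on every array, so the direction of Mt3 was shared with many genes. The share was 17.3% among the 10533 genes detected in both dyes on every array, and 93.8% of these had a lower median ratio than Mt3.

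Mt1 had a log2 ratio of -1.78 on C10-437, the lowest array, -1.41 at the median and -0.99 on C10-416, the highest. It was lower by more than 2-fold on 9 of 10 arrays, and C10-416 missed that limit. Across genes, 16.1% were lower by more than 2-fold on every array, 16.8% were so among the 10533 detected genes, and 33.9% were below 0 on every array. Mt1 ranked low in the ratio, with 16.6% of the 10533 genes below its median.

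Mt2 had a log2 ratio of -1.04 on C10-424, -0.66 at the median and -0.39 on C10-417. It was past 2-fold on 1 of 10 arrays. Mt2 was thus lower in hemibrain on every array by 1.31-fold to 2.06-fold, and 31.3% of the 10533 genes had a lower median. The ranges of Mt1 and Mt2 overlapped, since Mt2 on C10-424 lay below Mt1 on C10-416. Probe sequences were not used here, so the extent to which the probes of these closely related genes read each other's transcript was not tested.

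Mt4 gave no usable fold. Its brighter probe ran from -1.85 on C10-434 to -0.80 on C10-424, with a median of -0.98, and was detected on 7 arrays in Cy-5 and on 10 in Cy-3. The dimmer probe ran from -0.46 on C10-417 to 1.58 on C10-424, with a median of 0.86, and was detected on 1 array in Cy-5 and on 0 in Cy-3. The probes of this epithelial member therefore disagreed in sign. Of 8 markers of squamous epithelium, 3 were detected on every array in Cy-5. The ratios of the 8 were split, with 2 higher and 2 lower by more than 2-fold on every array and 4 neither. Over all genes with a value on every array, 15.7% were higher and 16.1% lower, so this split was not particular to these markers.

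**Figure D1:**
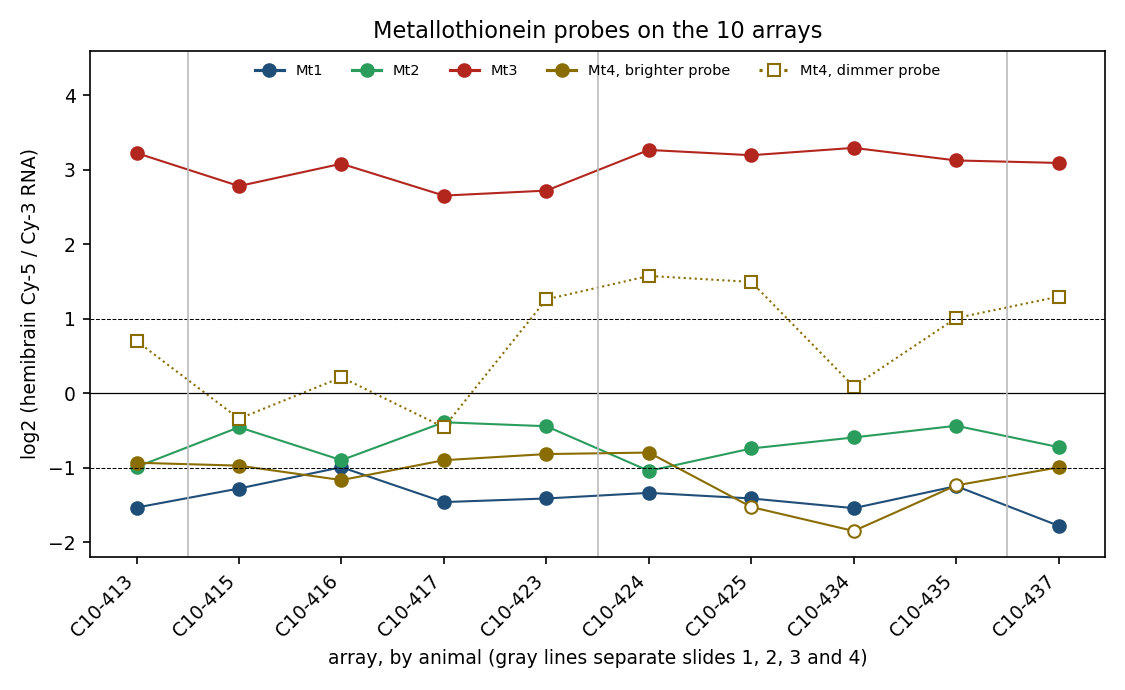
Log2 of Cy-5 over Cy-3 (vertical axis) for each metallothionein probe, with 1 point per array in the order of the slides, lines that only join points of a probe, and open points where a dye was not well above background. Mt3 lies between 2.65 and 3.30 on all 10 arrays, Mt1 and Mt2 lie below 0 on all 10, and the 2 Mt4 probes disagree.

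Mt1, Mt2 and Mt3 each varied over the arrays by less than a 2-fold step. The range over arrays was 0.79 for Mt1, 0.65 for Mt2 and 0.64 for Mt3 on the log2 scale. These ranges were ordinary for the array set, since 49.2%, 31.5% and 29.7% of the 10533 genes had a smaller one, respectively.

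The 10 spots of Mt1 gave a technical error within each array that the other members lack. The SD of the spots ran from 0.053 on C10-423 to 0.144 on C10-435, with a median of 0.106, while the array values spanned 0.79. When the arrays were ordered by Mt1, 7 of 9 neighboring pairs were closer than the larger of their spot SDs. Neighbors in the order could mostly not be separated, but the ends could be set apart from many arrays. On C10-416 the spots lay between -1.20 and -0.82, and 6 arrays had every spot lower. On C10-437 they lay between -2.02 and -1.57, and 5 arrays had every spot higher. The spots of an array share 1 animal and 1 labeling, so their SD covers the error of printing and scanning alone.

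**Figure D2:**
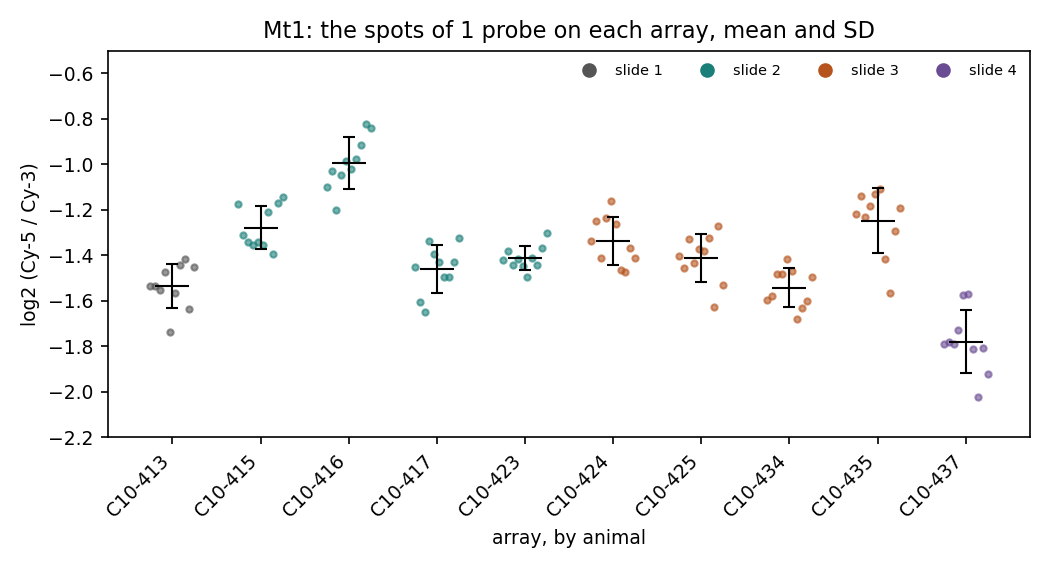
Log2 of Cy-5 over Cy-3 for the 10 Mt1 spots of each array, with small points for spots colored by slide and a bar for their mean with the SD of the spots. C10-437 lies lowest at -1.78 and C10-416 highest at -0.99, while the spots of most other arrays overlap.

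The ratio joins both dyes, so each dye was also described alone, as log2 of the processed signal relative to the 75th percentile of that dye on the array. The Cy-3 level of Mt1 stayed between 5.89 and 6.15, while its Cy-5 level ran from 4.17 on C10-437 to 4.99 on C10-416. Mt2 was similar, with 6.26 to 6.46 in Cy-3 and 5.21 to 6.02 in Cy-5. The Cy-5 range was the wider for both, but ordinary among the 10533 genes, of which 45.4% had a smaller Cy-5 range than Mt1 and 43.3% a smaller one than Mt2. In Cy-3 the shares were 64.1% and 43.8%.

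Mt3 varied in both dyes. Its Cy-5 level ran from 2.41 on C10-417 to 4.32 on C10-413, a range wider than that of 96.2% of the 10533 genes. Its Cy-3 level ran from -0.27 to 1.11, also highest on C10-413, and its range of 1.38 was wider than that of 95.1% of these genes. The brain form was therefore among the most variable genes in each dye but not in their ratio. Before dye normalization, background-subtracted Mt3 intensity was 1439 to 25771 in Cy-5 and 782 to 2098 in Cy-3, with C10-413 highest in each.

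The levels of the dyes were correlated across arrays for Mt3 (Pearson r = 0.90, permutation p = 0.00042, BH adjusted over 3 genes 0.00126, Spearman rho = 0.87, permutation p = 0.0023, adjusted 0.0069, n = 10 arrays). Without C10-413 and C10-417, r for Mt3 was 0.78. For Mt2, r was 0.73 (permutation p = 0.0198, adjusted 0.0297) and rho was 0.75 (permutation p = 0.0180, adjusted 0.0270), with r = 0.55 without C10-413 and C10-424. For Mt1, r was 0.31 (permutation p = 0.387) and rho was 0.39 (permutation p = 0.263), with r = 0.43 without C10-416 and C10-437. These relations were chosen after the levels had been seen. With slide means subtracted over the 8 arrays of slides 2 and 3, r was 0.93 for Mt3 (exact permutation within slides, p = 0.0174, adjusted 0.0521), 0.67 for Mt2 (exact permutation p = 0.0816, adjusted 0.122) and 0.018 for Mt1 (exact permutation p = 0.967). Neither Mt3 nor Mt2 passed the adjusted threshold there. The part that array or labeling plays in the shared variation of Mt3 was not tested.

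**Figure D3:**
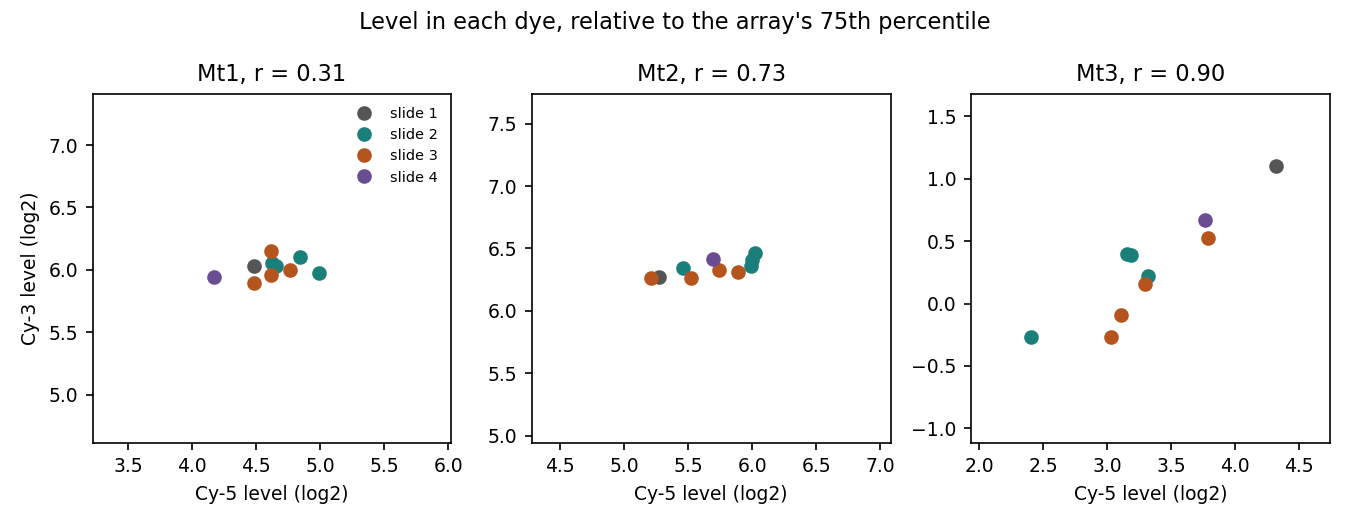
Cy-3 level (vertical axis) against Cy-5 level (horizontal axis) of Mt1, Mt2 and Mt3, as log2 of the processed signal relative to the array's 75th percentile in that dye, 1 point per array colored by slide and axes of equal span. Mt1 and Mt2 spread along Cy-5 with little change in Cy-3, while Mt3 spreads along both, up to 4.32 in Cy-5 and 1.11 in Cy-3 on C10-413.

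Whether neighbors in the gene cluster varied together across animals was examined in the 3 pairs of members detected in both dyes on every array. Mt1 and Mt2, which lie next to each other, had r = -0.047 (permutation p = 0.899) and rho = -0.018 (permutation p = 0.972), and r = 0.26 without C10-416 and C10-437. Mt1 and Mt3 had r = -0.095 (permutation p = 0.784, adjusted 0.899) and rho = -0.20 (permutation p = 0.581), and r = -0.19 without the same arrays. With 10 arrays, no relation was detected for either pair, and the sign for each depended on the processing.

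Mt2 and Mt3 had r = -0.70 (permutation p = 0.0286, adjusted over the 3 pairs 0.0858) and rho = -0.62 (permutation p = 0.0593, adjusted 0.178). Neither passed after adjustment. Without C10-413 and C10-424, the 2 arrays farthest from the median of Mt2, r was -0.61. C10-415, C10-417 and C10-423 sat apart from the others, with the lowest Mt3, 2.65 to 2.78, and high Mt2, -0.46 to -0.39. Over the other 7 arrays r was -0.20, given as a description with no test, since the 3 were picked by these same values. With slide means subtracted over the 8 arrays of slides 2 and 3, r was -0.77 (exact permutation within slides, p = 0.0486, adjusted over the 3 pairs 0.146). Under the same subtraction r was -0.54 for Mt1 and Mt2 (exact permutation p = 0.203) and 0.64 for Mt1 and Mt3 (exact permutation p = 0.207).

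**Figure D4:**
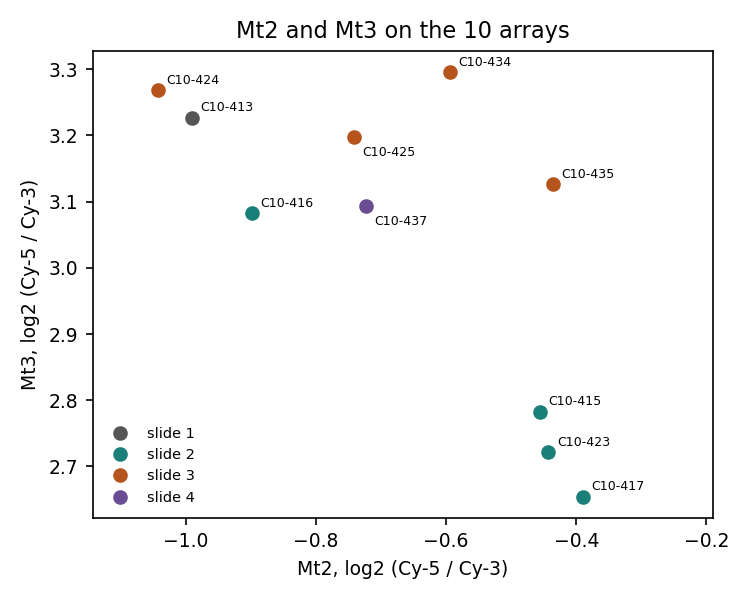
Log2 of Cy-5 over Cy-3 of Mt3 (vertical axis) against that of Mt2 (horizontal axis), 1 labeled point per array colored by slide. C10-415, C10-417 and C10-423 lie at the lower right, apart from the other 7 arrays.

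Slides 2 and 3 held 4 arrays each and were compared as technical batches with their animals. Between them, 30 of 40299 probes passed an adjusted p under 0.05 in limma (0.0744%), and 10.0% had an unadjusted p under that value. No metallothionein probe passed in the ratio. The difference, slide 3 minus slide 2, was -0.10 (SE 0.165, limma adjusted p = 0.968) for Mt1 and -0.16 (SE 0.194, limma adjusted p = 0.940) for Mt2. For Mt4 it was -0.39 (limma adjusted p = 0.682) on the brighter probe and 0.87 (limma adjusted p = 0.584) on the dimmer. In the Cy-5 level alone the dimmer Mt4 probe passed, with a difference of 1.27 (limma adjusted p = 0.0152, against 5.74% of all probes passing), although it was detected on 1 array in that dye.

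Mt3 differed by 0.41 (SE 0.156, limma p = 0.0264, adjusted 0.407). Its values were 2.78, 3.08, 2.65 and 2.72 on slide 2 and 3.27, 3.20, 3.30 and 3.13 on slide 3. The slides did not overlap for Mt3, as for 5.13% of genes, with slide 3 higher for 2.82%. Of 38 markers of brain cell types and blood, 3 did not overlap, with slide 3 higher for the astrocyte enzyme Aldoc (3.77 to 4.20 on slide 2, 4.29 to 4.50 on slide 3). Slide 3 was lower for the myelin gene Mag (3.965 to 4.620 against 3.724 to 3.959, a narrow gap) and the endothelial transporter Slco1a4 (2.86 to 3.90 against 2.40 to 2.69). Each was the only such marker of its list, 1 of 8 for astrocytes, 1 of 6 for oligodendrocytes and 1 of 4 for endothelium. They therefore do not show a slide difference in those cell types. The part of cell types in the Mt3 result was not tested. In the Cy-5 level alone the Mt3 difference was 0.29 (limma adjusted p = 0.750), and in the Cy-3 level alone it was -0.11 (limma adjusted p = 0.812, with 11.2% passing). Since diet was not assigned, slide, animal and diet cannot be told apart here, and in bulk tissue fewer cells of a type and less RNA per cell cannot be told apart either.

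The zinc transporters were split in direction. Of 9 measured Slc30 genes, which move zinc out of the cytosol or into vesicles, 2 were higher by more than 2-fold on every array, 1 was lower and 6 were neither, with a list median of 0.67. Slc30a3, which loads zinc into synaptic vesicles, had log2 ratios of 2.89, 3.56 and 4.47 as lowest, median and highest, and was detected on 8 arrays in Cy-3. Slc30a10, known for manganese export, was detected on 0 arrays in Cy-3 and was at least 3.92-fold to 26.4-fold higher in Cy-5 over the arrays. Slc30a1, the zinc exporter of the plasma membrane and a known Mtf1 target, was at 0.77, 1.06 and 1.58, and Slc30a4 was at -1.97, -1.45 and -1.14. Slc30a7, which loads zinc into the secretory pathway, was at -1.80, -1.37 and -0.89.

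Of 14 Slc39 genes, which bring zinc into the cytosol, 2 were higher, 2 were lower and 10 were neither, with a median of -0.43. Slc39a12 was at 4.79, 5.44 and 6.34, but was detected on only 5 arrays in Cy-3, so that these ratios rest in part on a signal close to background. Slc39a3 was at 1.21, 1.86 and 2.13. Slc39a14, an importer of zinc, iron and manganese, was at -1.87, -1.69 and -1.51, and Slc39a1 was at -1.95, -1.63 and -1.24. The counts of higher and lower genes in both families were close to the shares of all genes, 15.7% and 16.1%. Mtf1, the zinc sensor, was at 0.76, 0.93 and 1.09, higher in hemibrain on every array but past 2-fold on only some.

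Most copper handling genes, like most genes, were not past 2-fold on every array, although some passed it on part of the arrays. Of 9 genes, 0 were higher, 1 was lower and 8 were neither, with a median of -0.91, where 15.7% of all genes were higher and 16.1% lower. The lower gene was Cp, ceruloplasmin, the copper-carrying ferroxidase, at -4.02, -3.92 and -3.50. Commd1 was at -1.63, -1.32 and -0.87, Cox17, the copper chaperone for cytochrome oxidase, at 0.27, 0.55 and 1.08, and Atp7b, a copper pump, at 0.37, 0.54 and 0.62.

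Other targets of the known inducers of Mt1 and Mt2 were listed beside them. Their ratios compare hemibrain with the Cy-3 RNA, and the activity of the inducers was not tested. Of 8 glucocorticoid targets measured, 4 were higher, 2 were lower and 2 were neither, with a median of 1.57, against 15.7% of all genes higher and 16.1% lower. The sulfotransferase Sult1a1 was at 4.58, 5.36 and 5.64, detected on 9 arrays in Cy-3, and the transcription factor Klf9 at 1.70, 2.37 and 2.53. The cell cycle inhibitor Cdkn1a was at -3.12, -2.72 and -2.03 and Errfi1, an inhibitor of EGF receptor signaling, at -2.12, -1.86 and -1.78.

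Of 9 oxidative stress genes, 0 were higher, 3 were lower and 6 were neither, with a median of -1.15, beside the same shares of 15.7% and 16.1% over all genes. Heme oxygenase Hmox1 lay between -3.39 and -2.83, and Osgin1 was at -4.08, -3.65 and -2.96. Srxn1, which repairs peroxiredoxins, was at 0.62, 0.84 and 1.07, and Gclc, of glutathione synthesis, at -0.92, -0.65 and -0.17.

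Of 10 genes of reactive glia and the acute phase, 2 were higher and 8 were lower, with a median of -2.54, where 15.7% of all genes were higher and 16.1% lower. The astrocyte filament gene Gfap was at 6.40, 8.30 and 8.73 although detected on only 2 arrays in Cy-3, and the transcription factor Stat3 was at -2.48, -1.82 and -1.25. Vim, another filament gene, was at -5.50, -5.03 and -4.83 and Timp1, a metalloproteinase inhibitor, at -5.20, -4.94 and -4.57. The astrocyte marker list, whose cells are known to make Mt1 and Mt2, had a median of 5.46 and a range of 5.18 to 5.70 over the arrays.

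**Figure D5:**
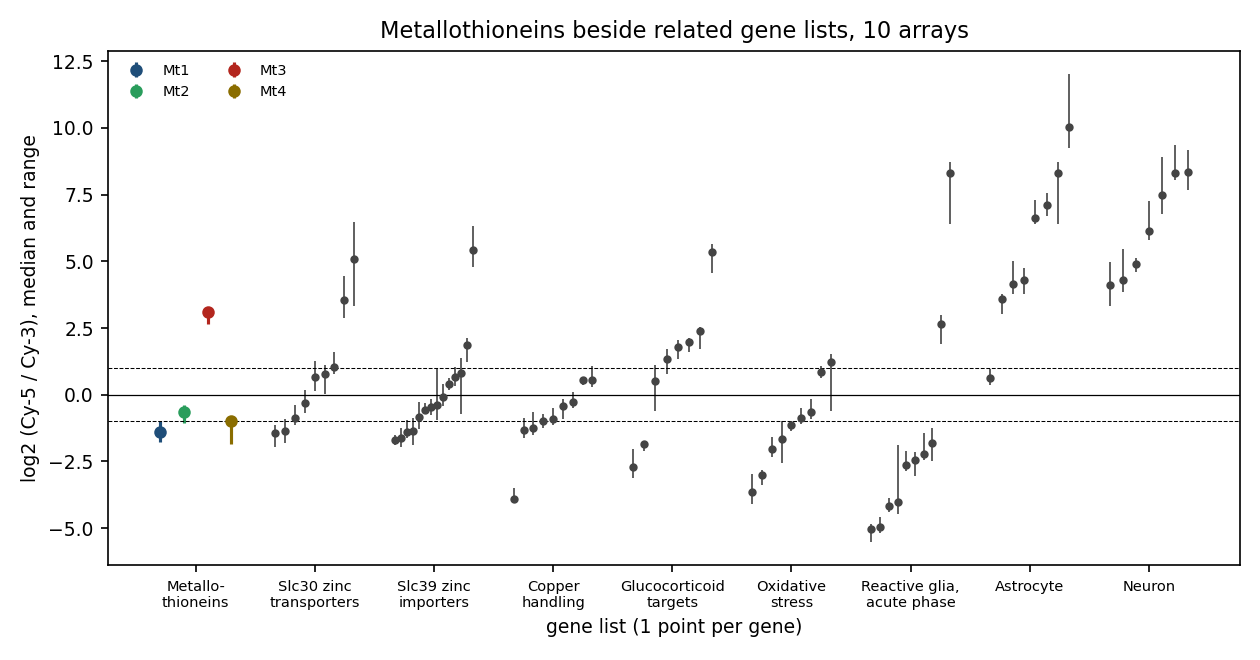
Median log2 of Cy-5 over Cy-3 over the 10 arrays, with a line for the range over the arrays, beside the metallothioneins (Mt4 by its brighter probe). Points are the genes of the zinc transporter, copper, glucocorticoid, oxidative stress, reactive glia, astrocyte and neuron lists. Mt1 and Mt2 lie below 0 while the astrocyte list has a median of 5.46, and the reactive glia list has a median of -2.54.

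The genes whose ratio followed each member most closely over the 10 arrays were listed among 10533 genes, as a description. For Mt1 they were Tufm (Pearson r = 0.88), Cyb5r1 (0.86), Spag7 (0.86), B4galt7 (0.86) and Cwc25 (0.85). For Mt2 they were Coa6 (0.96), Ccnq (0.95), Rps13 (0.94), Ftdc2 (0.93) and Acyp1 (0.93). For Mt3 they were Zswim4 (0.89), Trak1 (0.88), Galm (0.88), Kdm2b (0.87) and Cdan1 (0.87). No metallothionein was near the top for another. Mt2 stood at place 6651 in likeness to Mt1, and Mt3 stood at place 9842 in likeness to Mt2. The points share the 10 arrays and the Cy-3 RNA, and with so many genes high values of r arise among 10 arrays.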

How the data were processed

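Each array measured hemibrain RNA (Cy-5) against a second RNA (Cy-3). Scanner output of Feature Extraction was deposited by the authors (version 10.10.1.1 per the file headers). The deposited intensities of each dye are linear, as median, background, background-subtracted and processed signals, and the processed ones are background-subtracted and dye-normalized by that software. The deposited log ratio is log10 of Cy-5 over Cy-3, and the deposited value table followed log2 of that ratio, at r of 0.997 or more on each array and with 80.1% to 93.5% of its values within 0.001. Deposited flags for spots well above background, saturated or outlying were used unchanged.

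Ratios were taken as log2 of the processed signals without control and outlier-flagged spots, and spots of a probe were averaged. A probe was called detected where at least 0.5 of its spots were flagged well above background. No metallothionein spot was flagged as outlying or saturated. Of 41174 probes, 27198 were named by accession through RefSeq (GRCm38.p6, for names and promoters alone), and a gene was represented by its brightest probe. A gene was called where it was past 2-fold in the same direction on every array. Slc30a2, Mtf2, Sgk1, Zbtb16, Prdx1, Eno2, Flt1, Serpina1a and Hbb-bt were left out of their lists. For these genes no symbol matched, or the brightest probe lacked a value on at least 1 array, and these cases were not told apart. Where the Cy-3 signal was not well above background on any array, the fold is a bound against the lowest signal well above background.

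Slides were compared with limma 3.58.1 in R 4.3.3, with Benjamini-Hochberg (BH) adjustment over all probes. Tested on simulated data, this comparison recovered 43.5% of 200 probes changed by 1.5 on the log2 scale, with 5 false calls. Correlations used two-sided permutation tests with 100000 resamples for 10 arrays and all orders for fewer, taken within slides where slide means were subtracted (scipy 1.17.1, numpy 2.4.6, pandas 2.3.3, Python 3.11.15). From each fixed list, the named genes were the 2 highest and 2 lowest by median among those detected on all arrays in Cy-5, plus Mtf1, Slc30a1, Slc30a3, Slc39a14 and Slc30a10. Likeness took the 5 genes of highest Pearson r. The members and lists were chosen with earlier results of these data known. Alternatives were loess (span 0.3), median centring, normexp with an offset of 50, a floor of 0.5 with the same offset, single dyes, the deposited table and leaving out arrays. The number of arrays limits the precision.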

Additional observations from a re-analysis of the deposited data

How the results depend on the processing

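Under every normalization tried, Mt1, Mt2 and the brighter Mt4 probe stayed below 0 and Mt3 above 1 on every array. Of 185 recomputed values, 148 kept direction and side of the threshold or stayed close, 24 moved, 11 reversed and 2 newly passed. With normexp and then loess, the median of Mt1 was -1.64, of Mt2 -1.02 and of Mt4 -0.31. The background that normexp fitted was far from the others on C10-413 in Cy-5, at -2836 intensity units. With a floor on the background-subtracted signals, chosen after seeing the data, Mt2 was -0.97 and Mt4 -0.43, and with every Mt4 probe averaged Mt4 was -0.11.

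Between slides 2 and 3 the Mt3 difference was -0.11 in Cy-3 alone. The 30 probes passing in limma became 0 with normexp (1097 at an unadjusted p under 0.05), 0 with the floor (3006 unadjusted), 2313 in Cy-5 alone and 4509 in Cy-3 alone, and leaving out 1 array gave 0 to 18. The count was 0 without C10-416, C10-417, C10-424, C10-425, C10-434 or C10-435, 2 without C10-415 and 18 without C10-423.

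For Mt1 and Mt2, r was 0.094 with median centring, 0.60 with normexp, 0.18 in Cy-5 alone, 0.40 in Cy-3 alone and -0.54 with slide means subtracted, and leaving out 1 array gave -0.17 to 0.26, positive without C10-416 (0.26) or C10-424 (0.011). For Mt1 and Mt3, r was 0.013 with normexp, 0.24 with the floor and 0.64 with slide means subtracted, and leaving out 1 array gave -0.19 to -0.01. For Mt2 and Mt3, r was 0.012 in Cy-3 alone and -0.36 with normexp, and leaving out 1 array gave -0.80 to -0.62. It passed without C10-434 (-0.80, permutation p times 3 pairs 0.0415) or C10-435 (-0.79, 0.0484). These causes were not tested.

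Genes past 2-fold on every array, 2770 higher and 2844 lower, became 600 and 447 with normexp, 1694 and 1265 at 4-fold, and 1820 and 1765 among genes well above background in both dyes. No paired analysis was possible because the arrays have no group and carry no shared replicate numbers.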
